A study of Mus musculus with 15 samples.

Results

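The 10 genes described here encode receptors through which motor neurons receive survival signals: Ngfr, Ntrk2, Ntrk3, Ret, Gfra2, Lifr, Cntfr, Il6st, Met and Igf1r. They were taken by symbol from 36144 gene symbols with abundances in 15 libraries of mouse lumbar (L1 to L3) motor neurons. These neurons had been labelled with the tracer cholera toxin subunit B and laser-captured at postnatal day 6 from pups on an FVB background. Both genotypes carried the human SMN2 and SMNΔ7 transgenes, so the comparison animals were not free of them. WT pups were Smn+/+ and received vehicle, and SMA pups, a model of spinal muscular atrophy, were Smn-/- and received vehicle. The other 3 groups were Smn-/- pups injected intraperitoneally each day from postnatal day 0: SMA+MW150 with 5 mg/kg of an inhibitor of p38 MAP kinase, SMA+Pifithrin-α with 2.2 mg/kg of an inhibitor of p53, and SMA+SMN-C3 with 3 mg/kg of a compound that modifies SMN2 splicing. Each group held 3 biological replicates of both sexes; the labels do not say whether a replicate pooled animals, so the p-values measure the spread between these libraries.

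Motor neurons depend on factors released by muscle, Schwann cells and other neurons. Neurotrophins bind the Trk receptor kinases and the p75 receptor, ligands of the GDNF family bind a GFRα protein that presents them to the kinase RET, and cytokines of the LIF and CNTF type assemble complexes around gp130 that signal through JAK kinases. Hepatocyte growth factor and insulin-like growth factor 1 act through the kinases MET and IGF1R and are also survival factors for motor neurons.

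Several of these genes make transcripts whose proteins differ in their signalling end, and the results below turn on 3 such pairs. In each pair the last 15 shared coding bases are in lower case and the bases that only that form codes next, up to 45 or the stop codon, are in capitals. Ntrk2 (TrkB) makes a form with the kinase domain and a truncated form, T1, with a short tail of its own. The capitals lie at chr13:58985803-58985847 for the kinase form. For T1 the coding part after the split includes chr13:58932024-58932057, both on the plus strand of GRCm38.
Ntrk2-207, kinase form: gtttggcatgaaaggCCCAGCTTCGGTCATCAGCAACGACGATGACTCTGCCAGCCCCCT
Ntrk2-204, T1 form: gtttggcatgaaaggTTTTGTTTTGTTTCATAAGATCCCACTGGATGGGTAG
Ntrk3 (TrkC), on the minus strand of the same build, likewise makes a kinase form (capitals at chr7:78260370-78260414) and a truncated form (chr7:78304382-78304426).
Ntrk3-201, kinase form: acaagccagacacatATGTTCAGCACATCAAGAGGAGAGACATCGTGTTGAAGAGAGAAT
Ntrk3-202, truncated form: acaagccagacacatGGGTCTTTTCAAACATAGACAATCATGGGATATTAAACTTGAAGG
Ret, also on the minus strand, makes RET51 with a longer tail (capitals at chr6:118153965-118154009) and RET9 (coding part at chr6:118155259-118155286), both with the kinase.
Ret-201, RET51 form: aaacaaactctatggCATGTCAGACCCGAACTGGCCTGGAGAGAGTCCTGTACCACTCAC
Ret-202, RET9 form: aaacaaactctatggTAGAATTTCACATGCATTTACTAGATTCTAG
Sequences and positions were read from GENCODE M21, and the Ntrk2 and Ntrk3 loci overlap other annotated genes on both strands, so reads from those genes are a source of uncertainty in their values.

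Abundance is given as TPM, a transcript abundance that is scaled to transcript length and adds up to the same total in every library. TPM keeps no read depth, so the depth behind a value is unknown, and no counting interval is given. Between 12311 and 14916 genes reached 1 TPM in each library. Smn1 averaged 16.3 ± 7.18 TPM across WT and 0.154 ± 0.267 TPM across SMA libraries (SD, n = 3), as the genotype labels say, with an adjusted p of 0.000154 in limma. Motor neuron markers were abundant: all 13 were detected, with a summed level of 11957 to 20039 TPM per library, led by Nefm and Nefl. By group they summed to 14785 to 19629 TPM in WT and 11957 to 16305 TPM in SMA. In SMA against WT 1 had an unadjusted p under 0.05 by limma with a higher level and 2 with a lower level. That was 23.1% of the list, against 13.5% of all genes. In 2 libraries, WT 1 and SMA+Pifithrin-α 3, mitochondrially encoded genes took 21.9% and 20.4% of all TPM, against 3.76% to 12.6% in the other 13. These libraries stood apart in several results below. Markers of other cells were present too, and their levels are given beside the results they move with. In such bulk samples fewer cells of a type and less RNA per cell cannot be told apart.

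Ret was the most abundant of the receptor RNAs, and Met was the lowest, below the filter used for testing. Averaged over all 15 libraries, Ret stood at 168 ± 36.6 TPM (SD, n = 15, here and for the next genes), higher than 93.3% of the 15425 tested genes. Cntfr (48.1 ± 16.4 TPM), Ntrk3 (44.4 ± 8.25 TPM), Ntrk2 (38.2 ± 12.1 TPM) and Gfra2 (34.3 ± 10.5 TPM) formed a middle tier. Lifr followed at 20.0 ± 8.64 TPM and Il6st at 7.43 ± 1.58 TPM. Ngfr (3.76 ± 1.81 TPM) and Igf1r (3.29 ± 1.73 TPM) were low, and Met averaged 0.652 ± 0.792 TPM. Ret exceeded Cntfr in 15 of 15 libraries, Lifr exceeded Il6st in 15 of 15 and Igf1r exceeded Met in 15 of 15. Neighbours within the middle tier did not hold a fixed order: Cntfr exceeded Ntrk3 in 9 of 15 libraries, Ntrk3 exceeded Ntrk2 in 12 and Ntrk2 exceeded Gfra2 in 10. Ngfr exceeded Igf1r in 8 of 15, whereas Gfra2 exceeded Lifr in 13 and Il6st exceeded Ngfr in 14. The spread between libraries, as SD over mean, was smallest for Ntrk3 (18.6%), Il6st (21.3%) and Ret (21.8%) and largest for Met (122%) and Igf1r (52.6%).

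**Figure D1:**
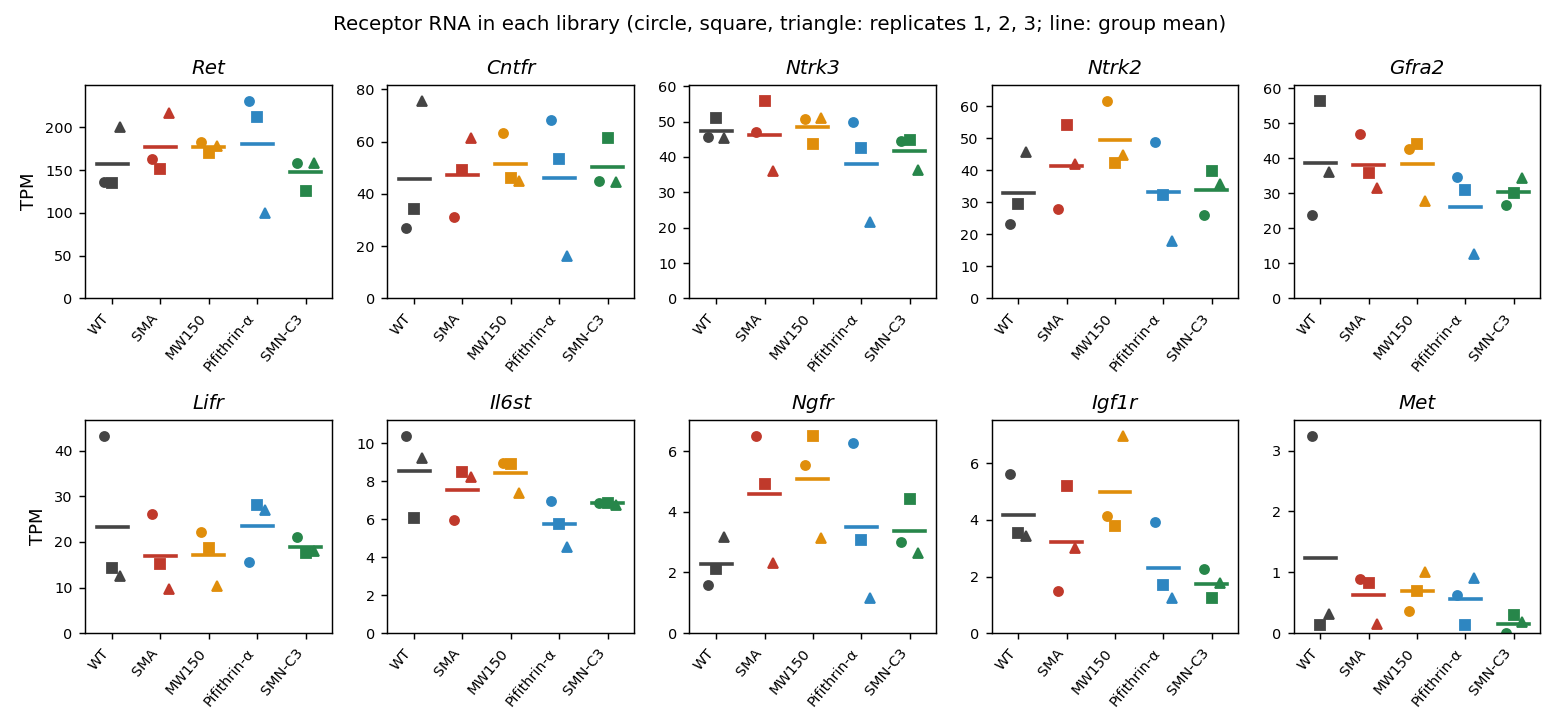
TPM (vertical axes, each from 0) of the 10 receptor genes in every library of the 5 groups, ordered by mean level; points are libraries and lines are group means. SMA+Pifithrin-α 3 is the lowest point for Ret, Cntfr, Ntrk3, Ntrk2, Gfra2, Il6st and Ngfr, and WT 1 is the highest for Lifr and Met.

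The first comparison asked whether loss of SMN changed receptor RNA. None of the 9 tested receptors differed between SMA and WT at an adjusted p under 0.05, and all 9 had overlapping groups. Met did not pass the filter of 1 TPM in at least 3 libraries. Of all 15425 tested genes 0.363% were called in this comparison (56 genes), 13.5% had an unadjusted p under 0.05 and 18.3% had groups that did not overlap. The corresponding counts for the receptors were 0 of 9 each. Their median difference was 0.04 on the log2(TPM + 1) scale, which understates changes of low genes, against 0.24 for all genes. Because the median of all genes moved with the scaling of the libraries, from 0.24 to 0.04 with median-of-ratios scaling, a receptor difference near 0.2 on this scale was within that shift.

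Ngfr (chr11:95568818-95587735, minus strand, GRCm38 as for all positions here) encodes p75, which motor neurons carry before birth, largely switch off afterwards and re-express after nerve injury. It had the largest difference of the receptors. The WT libraries held 1.57, 2.12 and 3.18 TPM and the SMA libraries 6.51, 4.90 and 2.30 TPM. SMA 1 and SMA 2 lay above every WT library, and SMA 3 lay among them. The fitted difference was 0.71 (SE 0.45, 95% interval -0.24 to 1.66, adjusted p = 0.45 by limma). Schwann cells also carry p75, and the Schwann and sensory neuron markers, led by Pmp22, summed to 41.8 to 47.2 TPM in WT, and SMA had 64.3 to 235 TPM. All 3 tested markers of this list had fitted differences above 0. An unadjusted p under 0.05 was found for 1 of them and for 13.5% of all genes. The part of these markers in the Ngfr values was not tested.

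Ntrk2 (chr13:58806569-59133970, plus strand) encodes TrkB, the receptor for BDNF and NT-4. It was at 23.3, 29.4 and 45.9 TPM in WT, and SMA had 28.0, 54.1 and 42.1 TPM. Each group held libraries on both sides of the other's mean, and the difference of 0.33 (SE 0.36) had an adjusted p of 0.65. Ntrk3 (chr7:78175959-78738012, minus strand) encodes TrkC, the receptor for NT-3. It was nearly level, at 45.6, 51.0 and 45.4 TPM in WT, and SMA had 47.1, 55.9 and 36.0 TPM (difference -0.05, SE 0.29, adjusted p = 0.94 by limma).

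Ret (chr6:118151745-118197718, minus strand), the shared kinase of the GDNF family, was at 136, 136 and 201 TPM in WT, and SMA had 163, 152 and 217 TPM. The difference of 0.18 had an SE of 0.29 and a 95% interval of -0.44 to 0.79; it was below 0 with median-of-ratios scaling (-0.074). Gfra2 (chr14:70890120-70979838, plus strand), the co-receptor that presents neurturin to RET, was at 23.8, 56.5 and 36.0 TPM in WT, and SMA had 47.0, 35.8 and 31.7 TPM. Its 3 SMA values lay inside the WT range. The difference was 0.04 (SE 0.37) and turned to -0.20 with median-of-ratios scaling and to -0.064 without mitochondrial genes.

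The receptors of the CNTF and LIF group did not separate the genotypes either. Cntfr (chr4:41657498-41697089, minus strand), the ligand-binding subunit for CNTF, was at 26.9, 34.2 and 75.7 TPM in WT, and SMA had 31.1, 49.2 and 61.6 TPM (difference 0.14, SE 0.46, and -0.10 with median-of-ratios scaling). Lifr (chr15:7090614-7197489, plus strand), the signalling partner of gp130 for LIF and CNTF, was at 43.3, 14.2 and 12.5 TPM in WT, and SMA had 26.0, 15.1 and 9.72 TPM. The value of WT 1 was the highest of the 15, and the difference of -0.32 (SE 0.45) became 0.22 without that library. Il6st (chr13:112464070-112510086, plus strand), which encodes gp130, was at 10.4, 6.06 and 9.22 TPM in WT, and SMA had 5.97, 8.51 and 8.22 TPM (difference -0.14, SE 0.30).

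Igf1r (chr7:67952827-68233668, plus strand), the kinase for insulin-like growth factor 1, was at 5.61, 3.52 and 3.44 TPM in WT, and SMA had 1.48, 5.19 and 3.02 TPM, with a difference of -0.37 (SE 0.41, adjusted p = 0.66 by limma). Met (chr6:17463800-17573980, plus strand), the receptor of hepatocyte growth factor, was at 3.25 TPM in WT 1, while the other WT libraries had 0.136 and 0.310 TPM. It was at 0.894, 0.831 and 0.148 TPM in SMA. It was at 0.362, 0.692 and 1.01 TPM in SMA+MW150, 0.631, 0.130 and 0.907 TPM in SMA+Pifithrin-α, and 0, 0.296 and 0.182 TPM in SMA+SMN-C3. Met thus reached 1 TPM in 2 of the 15 libraries.

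**Figure D2:**
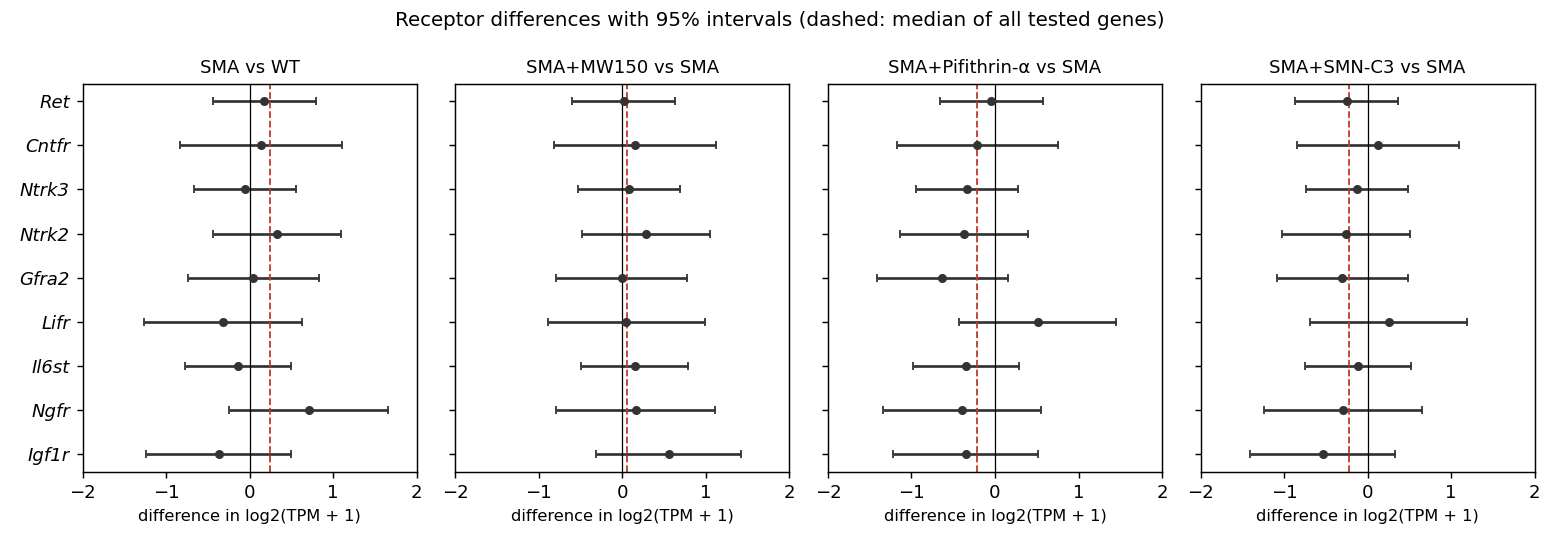
Fitted differences in log2(TPM + 1) of the 9 tested receptors (points) with 95% intervals (bars) for SMA against WT and for each treated group against SMA; the red dashed line is the median of all tested genes. Every interval includes 0.

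The next comparisons asked whether a compound moved receptor RNA in SMA motor neurons; all 3 share the same SMA libraries. No receptor was called in any of them, 0 of 9 had groups that did not overlap in each, and none had an unadjusted p under 0.05. Among all genes 0.00648% were called with MW150, 0.00648% with Pifithrin-α and 0.0648% with SMN-C3. Groups did not overlap for 10.9%, 15.3% and 20.7% of all genes, and the unadjusted p was under 0.05 for 1.9%, 10.7% and 8.53%. The median of the receptors was 0.15 with MW150, against 0.06 for all genes. It was -0.35 with Pifithrin-α, against -0.22, and -0.25 with SMN-C3, against -0.23.

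With MW150, Igf1r had the largest difference: 4.13, 3.80 and 6.98 TPM against 1.48, 5.19 and 3.02 TPM in SMA (difference 0.56, SE 0.41, 95% interval -0.31 to 1.43, adjusted p = 1 by limma). One SMA library lay inside the treated range. Ntrk2 was at 61.7, 42.2 and 45.0 TPM, and SMA+MW150 1 was the highest library for this gene (difference 0.28, SE 0.36). Ngfr was at 5.54, 6.51 and 3.14 TPM (difference 0.16, SE 0.45). Ret was at 183, 170 and 178 TPM, the narrowest spread of any group (difference 0.02, SE 0.29, and -0.064 with median-of-ratios scaling). The differences of the other 5 tested receptors lay between -0.01 and 0.16. For Cntfr (63.5, 46.0 and 45.1 TPM), Gfra2 (42.8, 44.2 and 27.8 TPM) and Lifr (22.1, 18.7 and 10.4 TPM) 1 treated library lay apart from the others, the first for Cntfr and the third for Gfra2 and Lifr. Ntrk3 was at 50.6, 43.8 and 51.0 TPM and Il6st at 8.97, 8.94 and 7.36 TPM.

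With Pifithrin-α, Gfra2 was at 34.6, 30.9 and 12.8 TPM, and the difference from SMA was -0.63 (SE 0.37, 95% interval -1.41 to 0.15, adjusted p = 0.48 by limma). It was -0.20 without SMA+Pifithrin-α 3, the library rich in mitochondrial RNA. Lifr went the other way, at 15.6, 28.2 and 27.0 TPM (difference 0.51, SE 0.45), where 2 of the treated libraries exceeded every SMA library. Ret was at 231, 213 and 99.6 TPM; SMA+Pifithrin-α 1 was the highest of all 15 libraries and SMA+Pifithrin-α 3 the lowest. Its difference was -0.04 (SE 0.29), 0.22 with median-of-ratios scaling and 0.34 without SMA+Pifithrin-α 3. Cntfr showed the same split, with 68.3, 53.4 and 16.3 TPM, and its difference of -0.21 became 0.40 without that library. Ngfr (-0.40), Ntrk2 (-0.37), Ntrk3 (-0.34), Il6st (-0.35) and Igf1r (-0.35) had fitted differences of like size, with SEs of 0.29 to 0.45. In each of these 5 genes SMA+Pifithrin-α 3 was the lowest treated library: Ngfr was at 6.27, 3.08 and 1.16 TPM, Ntrk2 at 48.9, 32.3 and 18.0 TPM, and Ntrk3 at 49.8, 42.5 and 21.7 TPM. Il6st was at 6.96, 5.74 and 4.55 TPM and Igf1r at 3.94, 1.70 and 1.24 TPM.

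With SMN-C3, Igf1r was at 2.26, 1.23 and 1.76 TPM, and the difference from SMA was -0.54 (SE 0.41, adjusted p = 0.77 by limma). SMA 1, at 1.48 TPM, lay inside the treated range. Il6st was at 6.89, 6.88 and 6.77 TPM, and all 3 treated libraries lay within the SMA range. Ngfr was at 3.01, 4.42 and 2.63 TPM (difference -0.30, SE 0.45), between the WT and SMA means. Ret, Ntrk2 and Ntrk3 had differences of -0.25, -0.26 and -0.13, and each was above 0 with median-of-ratios scaling, at 0.015, 0.0025 and 0.13. Ret was at 159, 126 and 159 TPM, Ntrk2 at 25.9, 39.8 and 35.7 TPM and Ntrk3 at 44.4, 44.7 and 36.4 TPM. Gfra2 (difference -0.30), Lifr (0.25) and Cntfr (0.12) did not pass the test either. Their treated libraries held 26.7, 30.2 and 34.5 TPM, 21.2, 17.6 and 18.0 TPM, and 44.8, 61.4 and 44.4 TPM, in that order.

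Against WT, no receptor was called in any treated group, where 0.143% of all genes were called with MW150, 0.117% with Pifithrin-α and 0.0194% with SMN-C3. With MW150 10.2% of all genes had an unadjusted p under 0.05 and 19.9% had groups that did not overlap; with Pifithrin-α these shares were 5.78% and 6.87%, and 0 of 9 receptors was among them in either. Igf1r in SMA+SMN-C3 was the 1 case with an unadjusted p under 0.05 (0.042), in a comparison where 7.31% of all genes had one, 5.08% with a lower level. Its 3 treated libraries, at 1.23 to 2.26 TPM, lay below the WT libraries at 3.44 to 5.61 TPM, a pattern found for 8.82% of all genes (12.8% did not overlap in either direction). The difference was -0.91 (SE 0.41, 95% interval -1.78 to -0.04) and did not pass the correction (adjusted p = 0.67 by limma). With the replicate number as a block its unadjusted p was 0.056, also by limma. Ntrk3 in the same groups did not overlap either, at 36.4 to 44.7 TPM against 45.4 to 51.0 TPM, with a difference of -0.18 (SE 0.29). Across the 5 groups at once, the F test of limma called 0 of the 9 receptors and 0.22% of all genes, where 9.46% of all genes and 0 of the 9 receptors had an unadjusted p under 0.05. The smallest adjusted p was 0.54, for Igf1r.

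The SMA and WT libraries did not overlap in the balance of the TrkB forms, although they did in the gene total. Transcripts that code for the kinase held 80.5%, 83.4% and 82.3% of Ntrk2 abundance in WT and 74.6%, 67.8% and 65.1% in SMA. All 3 SMA libraries lay below all 3 WT libraries, and the means were 82.1% ± 1.41 and 69.2% ± 4.92 (SD, n = 3), a difference of -12.9 percentage points. The exact two-sided permutation test gave p = 0.1, which is the smallest p that 3 libraries against 3 can give, and 0.27 after Benjamini-Hochberg adjustment over the 8 comparisons of this kind. In SMA+MW150 the share was 78.5%, 78.5% and 75.3%, and in SMA+SMN-C3 it was 74.9%, 79.5% and 84.7%. Both groups lay above all SMA libraries, the nearest by under 1 point, and their means were higher by 8.27 and 10.5 points (exact permutation p = 0.1 and adjusted p = 0.27 for each). In SMA+Pifithrin-α it was 83.0%, 72.9% and 70.9%, which overlapped SMA (exact permutation p = 0.3, adjusted p = 0.40). These 3 comparisons share the SMA libraries. How often such a share separates the groups for other genes was not counted. Of all tested single transcripts, 15.8% did not overlap in SMA against WT, 12.3% with MW150 and 16.1% with SMN-C3 against SMA.

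In TPM the SMA and WT libraries overlapped for the kinase transcripts and for all other Ntrk2 transcripts together, and did not overlap for the T1 transcripts alone. No test of these sums was made, and how often such sums separate the groups for other genes was not counted. Kinase-coding Ntrk2 RNA averaged 27.0 ± 9.72 TPM across the WT libraries and 28.3 ± 7.95 TPM across the SMA libraries (SD, n = 3). The T1 transcripts, Ntrk2-202 and Ntrk2-204, together held 3.82, 3.93 and 6.51 TPM in WT, and SMA had 6.77, 11.3 and 11.5 TPM, without overlap. They held 9.56, 7.01 and 8.73 TPM in SMA+MW150, 6.46, 5.81 and 4.82 TPM in SMA+Pifithrin-α and 5.49, 4.43 and 3.93 TPM in SMA+SMN-C3. For T1 all 6 libraries of the last 2 groups lay below all SMA libraries. All Ntrk2 transcripts that do not code for the kinase, T1 included, summed to 4.53, 4.89 and 8.13 TPM in WT, and SMA had 7.09, 17.5 and 14.7 TPM, so WT 3 lay above SMA 1. By this sum SMA+MW150 had 13.3, 9.08 and 11.1 TPM, SMA+Pifithrin-α 8.31, 8.76 and 5.25 TPM and SMA+SMN-C3 6.51, 8.18 and 5.48 TPM. Each treated group held libraries above SMA 1. Of the single transcripts, Ntrk2-204 had a difference of 1.65 (SE 0.52) between SMA and WT, with an adjusted p of 0.27 by limma over 41719 tested transcripts. Among the 73 transcripts of the 10 genes 27 were tested and 0 were called in SMA against WT, where 0.221% of all transcripts were called. In the same comparison 3 of 27 had an unadjusted p under 0.05 (12.2% of all transcripts) and 1 of 27 had groups that did not overlap (15.8%). Of the 27, 0 were called with MW150, Pifithrin-α or SMN-C3 against SMA either, where 0.0024%, 0.00479% and 0.012% of all transcripts were. An unadjusted p under 0.05 was found for 1, 4 and 1 of them (4.52%, 8.33% and 6.88% of all transcripts), and groups did not overlap for 2, 4 and 3 (12.3%, 12.9% and 16.1%).

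T1 is known as the main TrkB form of astrocytes, and astrocyte RNA was present in these captures. The 12 astrocyte markers were all detected in every library and summed to 989 to 1940 TPM in WT, 1697 to 2470 TPM in SMA, 1991 to 2409 TPM in SMA+MW150, 1013 to 2037 TPM in SMA+Pifithrin-α and 1833 to 2018 TPM in SMA+SMN-C3. Aldoc and S100b led this list and made up most of these sums. Aldoc averaged 964 TPM in WT, 1228 TPM in SMA and 1271 TPM in SMA+SMN-C3, and S100b 321, 373 and 375 TPM. In SMA+SMN-C3 against WT 7 of 12 markers had fitted differences below 0 and 5 above 0 (median -0.23). The fitted differences of all 12 markers were above 0 in SMA against WT, 2 of 12 with an unadjusted p under 0.05, and their median was 0.64. Against SMA 10 of 12 were below 0 with MW150 (median -0.07), 11 of 12 with Pifithrin-α (median -0.73) and 10 of 12 with SMN-C3 (median -0.84). An unadjusted p under 0.05 was found for 0 of 12 with MW150, 4 of 12 with Pifithrin-α and 6 of 12 with SMN-C3, each of these with a lower level, against the shares of 1.9%, 10.7% and 8.53% of all genes, either way, given above (13.5% in SMA against WT). The part of astrocyte RNA in the TrkB balance was not tested.

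**Figure D3:**
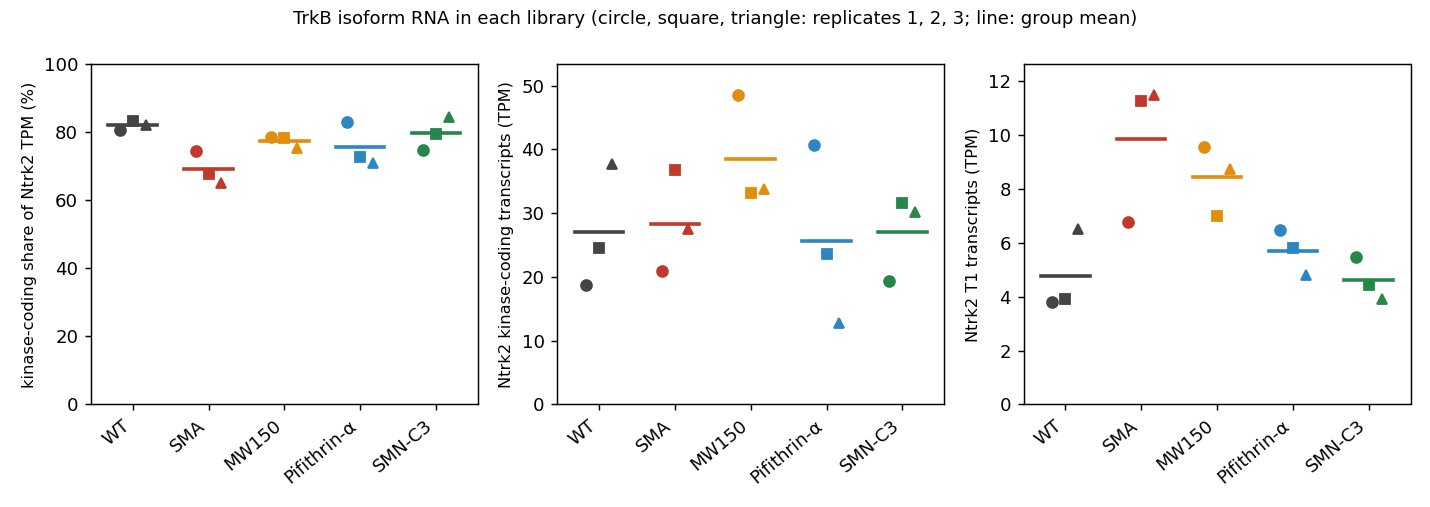
Share of Ntrk2 TPM in kinase-coding transcripts (left), TPM of those transcripts (middle) and TPM of the T1 transcripts (right) in each library by group; points are libraries and lines are group means. SMA 3 and SMA 2 have the lowest shares, at 65.1% and 67.8%, and T1 is highest in SMA 2 and SMA 3, at 11.3 and 11.5 TPM.

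For TrkC the libraries of the compared groups overlapped, although some mean differences were as large as for TrkB. Kinase-coding transcripts held 59.2% ± 5.15 of Ntrk3 TPM in WT, 56.9% ± 7.23 in SMA, 61.6% ± 4.76 in SMA+MW150, 64.5% ± 3.14 in SMA+Pifithrin-α and 68.3% ± 4.85 in SMA+SMN-C3 (SD, n = 3). The groups overlapped in all 4 comparisons, with exact permutation p-values of 0.2 to 0.5. Against SMA the mean TrkC share was higher by 4.71 points with MW150, 7.63 with Pifithrin-α and 11.4 with SMN-C3. The TrkB differences were 8.27, 6.44 and 10.5 points in the same order. Counted among protein-coding transcripts only, the SMA share was above the WT share instead, by 2.80 points. Counted so, the differences from SMA were -2.70 points with MW150, -1.09 with Pifithrin-α and 6.42 with SMN-C3.

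The choice between long and short transcripts of 4 receptors set WT 1 and SMA+Pifithrin-α 3 apart from the rest. This pattern was chosen after its values were seen, and no test was made. Both Ntrk2-201 and Ntrk2-207 code for the kinase, but the first has a 3′ UTR of 5620 bases and the second one of 1615 bases. Ntrk2-201 held 96.5% of this pair in WT 1 and 96.2% in SMA+Pifithrin-α 3, against 13.2% to 55.9% in the other 13 libraries. Ntrk3-201, with a 3′ UTR of 16603 bases, held 65.4% and 52.0% of the kinase transcripts of its gene, against 12.3% to 28.5%. For Ret the longer transcript is RET51, which held 66.7% and 52.1%, against 24.3% to 44.3%. Gfra2-201, the longest transcript of its gene, went the other way and held 24.0% and 23.3%, against 44.6% to 70.5%. The next 2 libraries by mitochondrial share, SMA+Pifithrin-α 2 and SMA+SMN-C3 1, had the next highest shares of Ntrk2-201, at 55.9% and 54.4%. The other transcripts did not keep this order. SMA+SMN-C3 1 held 19.9% for Ntrk3-201, below SMA+MW150 1 at 20.3%, and 34.8% for RET51, below WT 2 at 36.9%. For Gfra2-201 SMA+Pifithrin-α 2 held 56.1%, and the lowest of the other 13 libraries was SMA 2 at 44.6%.

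**Figure D4:**
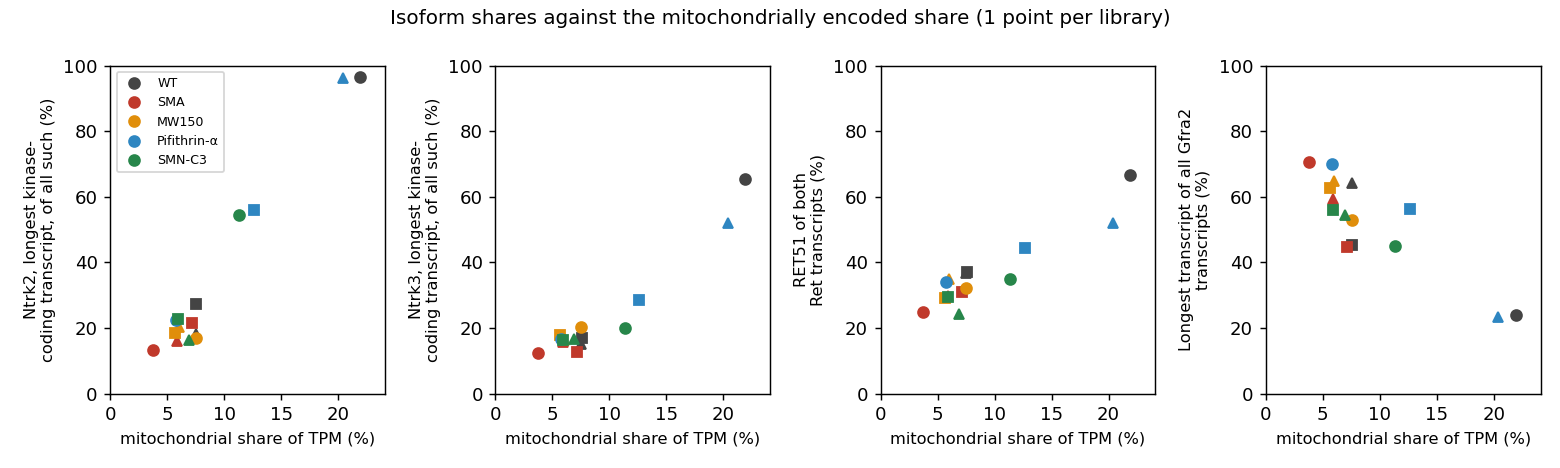
Share of the named transcript (vertical, %) against the share of TPM from mitochondrially encoded genes (horizontal, %), 1 point per library, with circle, square and triangle for replicates 1, 2 and 3 of a group. WT 1 and SMA+Pifithrin-α 3, at 21.9% and 20.4% on the horizontal axis, lie apart from the other 13 libraries in all 4 panels.

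The WT and SMA libraries did not overlap in the RET51 share: 66.7%, 36.9% and 36.6% in WT against 24.8%, 31.0% and 29.7% in SMA. The WT libraries other than WT 1 still lay above all 3 SMA libraries. How often such a share separates WT and SMA for other genes was not counted. Of all tested single transcripts, 15.8% did not overlap between them. The share was 32.2%, 29.1% and 35.0% in SMA+MW150, 34.0%, 44.3% and 52.1% in SMA+Pifithrin-α, and 34.8%, 29.4% and 24.3% in SMA+SMN-C3. No test of this share was made, and the mitochondrial share, at 21.9%, 7.55% and 7.52% in WT and 3.76%, 7.15% and 5.88% in SMA, moved with it; its part was not tested. Transcripts for the soluble form of the LIF receptor, Lifr-202 and Lifr-207, were a minor part of Lifr, from 0.104% in WT 1 to 9.74% in SMA+MW150 3.

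The other genes of these pathways were taken from lists of ligands, further receptors, intracellular signalling genes, and targets and feedback genes. No gene of the 4 lists was called in SMA against WT or in any treated group against SMA. Of 18 ligands 11 were tested. In SMA against WT 2 had an unadjusted p under 0.05 with a higher level and 1 with a lower level. That was 27.3% of the tested ligands, against 13.5% of all genes. Their median difference was 0.67, against 0.24 for all genes. The most abundant ligands were Igf1, Bdnf and Nrtn. Igf1 was at 24.0, 7.06 and 11.6 TPM in WT, and SMA had 4.77, 5.02 and 7.89 TPM (difference -1.01, SE 0.41, adjusted p = 0.34 by limma). Bdnf, the TrkB ligand, was at 7.39, 5.81 and 8.54 TPM in WT, and SMA had 22.7, 7.92 and 9.90 TPM (difference 0.69, SE 0.38). Nrtn, which encodes neurturin, the ligand of GFRα2, was at 2.42, 17.9 and 6.68 TPM in WT, and SMA had 8.72, 14.8 and 12.0 TPM (difference 0.67, SE 0.52). With Pifithrin-α it was at 9.92, 3.02 and 2.51 TPM, with a difference from SMA of -1.23 (SE 0.52, adjusted p = 0.46 by limma). Osm was listed at 0 in all 15 libraries.

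Of 22 further receptors 16 were tested, and 0 had an unadjusted p under 0.05 in SMA against WT (median 0.26). Bex3 and Maged1, both known to bind p75, and Ncam1, a binding partner of GDNF, were the most abundant of them, with differences of 0.44, 0.32 and 0.23. Of 44 intracellular signalling genes 43 were tested, and 3 (6.98%) had an unadjusted p under 0.05, all with a higher level in SMA. The share of all genes with a higher level was 10.6%, and the median of the list was 0.32. Hras and Map2k2, of the Ras and MAP kinase route, were among the most abundant. Hras was at 98.9, 301 and 321 TPM in WT, and SMA had 413, 338 and 381 TPM, without overlap (difference 0.82, SE 0.42, adjusted p = 0.39 by limma). For 14.5% of all genes the SMA libraries lay above all WT libraries. WT 1, rich in mitochondrial RNA, had the lowest Hras value of the 15 libraries, and no difference without it is given. The groups overlapped for Map2k2 (difference 0.48).

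Of 28 targets and feedback genes 27 were tested. In SMA against WT 8 had an unadjusted p under 0.05, all with a higher level (29.6% of the list, against 10.6% of all genes with a higher level). For 11 the SMA libraries lay above all WT libraries (40.7%, against 14.5% of all genes). The list was chosen with earlier results of these data known, so these shares are not an independent test of it. The median difference was 0.64. Igfbp2, Vgf and Socs2 were the most abundant. Vgf, a secreted protein raised by BDNF, was at 55.4, 79.6 and 132 TPM in WT, and SMA had 194, 161 and 159 TPM, without overlap (difference 1.02, SE 0.51, adjusted p = 0.38 by limma). Igfbp2, which binds insulin-like growth factors, had a difference of 0.59 (SE 0.43), and Socs2, a feedback inhibitor of JAK signalling, one of 0.31 (SE 0.44). Against SMA the median of the list was 0.04 with MW150, -0.68 with Pifithrin-α and -0.54 with SMN-C3, against 0.06, -0.22 and -0.23 for all genes. Igfbp2 was at 133, 122 and 39.2 TPM with Pifithrin-α, below all SMA libraries, at 177, 253 and 232 TPM (difference -1.33, SE 0.43, adjusted p = 0.46 by limma). In this comparison 15.3% of all genes did not overlap. SMA+Pifithrin-α 3, rich in mitochondrial RNA, had the lowest Igfbp2 value of the 15 libraries, and no difference without it is given.

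**Figure D5:**
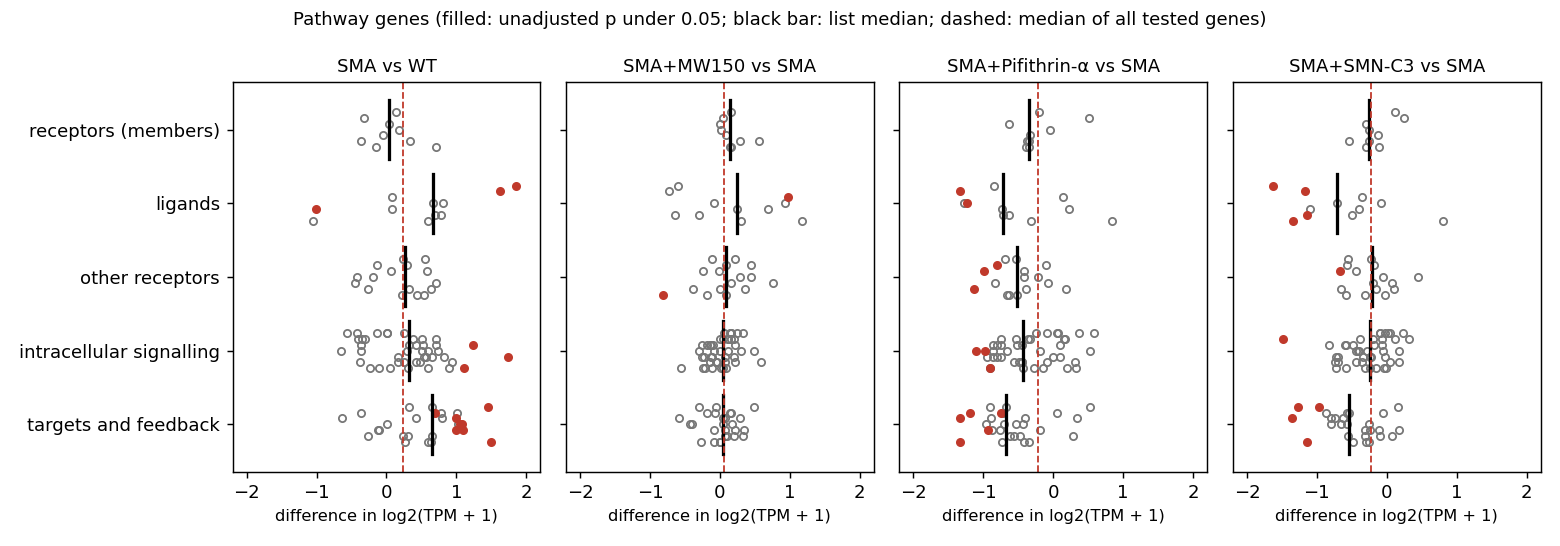
Differences in log2(TPM + 1) of each tested gene of the receptor list and the 4 pathway lists in 4 comparisons, 1 point per gene; filled points have an unadjusted p under 0.05, black bars are list medians and dashed lines the median of all tested genes. No receptor is filled, and the targets and feedback list has 8 filled points in SMA against WT.

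Levels of markers of other cells differed between the same groups, and their part in the pathway lists was not tested. The 12 microglia markers, C1qb among the highest, summed to 71.0 to 100.02 TPM in WT, and SMA had 191 to 224 TPM, without overlap. They summed to 137 to 195 TPM in SMA+MW150, 82.6 to 145 TPM in SMA+Pifithrin-α and 99.3 to 132 TPM in SMA+SMN-C3. In SMA against WT 7 of 12 (58.3%) had an unadjusted p under 0.05, all with a higher level, and 1 was called. Of all genes 10.6% had such a p with a higher level, and 0.363% were called in either direction. Oligodendrocyte lineage markers, led by Mbp, summed to 801 to 2309 TPM in WT, and SMA had 959 to 4724 TPM; they reached 6541 TPM in SMA+MW150 and at most 1492 TPM in SMA+Pifithrin-α and 2053 TPM in SMA+SMN-C3. Vascular markers, led by Ly6c1 and Cldn5, summed to 89.0 to 127 TPM in WT, and SMA had 135 to 193 TPM, although the median difference of the 10 tested was -0.15. Spinal interneuron markers summed to 17.5 to 55.2 TPM over all libraries, with Slc17a6 and Gad1 the highest and Tlx3 listed at 0 throughout. Schwann and sensory neuron markers, 9 of 10 of them in the table, did not overlap between WT and any other group. Beside the WT and SMA sums given with Ngfr, they summed to 90.3 to 235 TPM in SMA+MW150, 78.0 to 111 TPM in SMA+Pifithrin-α and 90.03 to 103 TPM in SMA+SMN-C3. Of the 3 tested markers of this list 1 had groups that did not overlap in SMA against WT, where 18.3% of all genes did not. How often sums of other genes separate the groups was not counted.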

How the data were processed

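The authors deposited TPM values per gene and per transcript for 15 libraries, and each column sums to 1000000. The submitters' processing notes name kallisto 0.44.0, DESeq2, GRCm38.p6 and mm10; the labels' protocols describe low-input poly(A) libraries with paired 100-base reads. The annotation release is not given in the sources used here; 98.5% of transcript identifiers matched GENCODE M21, which gave isoform structure, coordinates and sequence.

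Here values were taken as log2(TPM + 1), and the 15425 genes that reached 1 TPM in 3 or more libraries were fitted with limma 3.58.1 in R 4.3.3, with 1 mean per group over all 15 libraries and a variance trend. Tests were two-sided and Benjamini-Hochberg adjusted over all genes of a comparison; a gene was called at an adjusted p under 0.05. Transcripts were fitted alike. Isoform shares were compared by exact permutation tests. Deviations from group means correlated over 0.1 in all 3 same-numbered pairs (0.285, 0.105 and 0.182) for WT and SMA+SMN-C3 alone, so those numbers may pair the libraries; this comes from the values, not the labels. The members and lists were chosen with earlier results of these data known. Named were all 10 receptors, Smn1, of each pathway list the 3 tested genes of highest mean TPM, and of each marker list the 2 highest and any at 0 throughout; some genes that this rule names are not reported here. Alternatives covered pseudocount, filter, scaling, weights, mitochondrial share, replicate block and left-out libraries. They are given for the receptors, their transcripts and kinase shares and the count of all called genes, not for the pathway lists. Figures were drawn with matplotlib 3.10.9.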

Additional observations from a re-analysis of the deposited data

How the results depend on the processing

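No receptor was called in any of the 7 comparisons under any of the settings counted here, single-library omissions included. Among the receptor transcripts 0 were called under theirs. A fit that did not converge is left out of this count and described below. The 1 exception among the tests was the F test over 5 groups, which called 1 receptor, Igf1r (adjusted p 0.036), with gene-by-gene array weights. The planned array weights by limma's default method did not converge, gave SMA+Pifithrin-α 2 a weight of 276, and are therefore not counted among the settings. That fit called 1 receptor (Lifr) in SMA+Pifithrin-α against SMA and 4 (Ret, Gfra2, Lifr and Igf1r) in SMA+Pifithrin-α against WT. Across the 5 groups it called 6 (Ntrk2, Ret, Gfra2, Lifr, Il6st and Igf1r). In the same order it called 5155, 3760 and 9866 of all genes. The gene-by-gene weights (0.138 for WT 1 to 5.71 for SMA+Pifithrin-α 2) were chosen after seeing this. TPM without counts limits what can be said of the low receptors, and groups of 3 leave 95% intervals over 1 log2 unit wide for every tested receptor.

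Counts of all called genes moved more. For SMA against WT (56) they ranged from 16 with only the groups compared to 100 with gene-by-gene weights, and from 20 without SMA 1 to 114 without SMA+Pifithrin-α 3. For SMA+SMN-C3 against SMA (10) they ranged from 4 to 231, with 166 without the 2 mitochondria-rich libraries, and from 0 without SMA 1 or SMA 2 to 20 without SMA+Pifithrin-α 3. For SMA+Pifithrin-α against SMA (1) they ranged from 0 to 1574, the latter with gene-by-gene weights, and for SMA+MW150 against SMA (1) from 0 to 3. Against WT they ranged from 13 to 91 with MW150 (22), from 0 to 609 with Pifithrin-α (18) and from 2 to 39 with SMN-C3 (3). Leaving out 1 library at a time gave 9 to 37, 5 to 30 and 2 to 8 against WT, in the same order. The fitted sign of many receptor differences, all within their errors, changed with the setting; beyond the rescaling itself, the cause was not tested.

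With median-of-ratios scaling, SMA against WT turned to -0.074 for Ret, -0.20 for Gfra2 and -0.10 for Cntfr. SMA+MW150 against SMA turned to -0.064 for Ret and -0.027 for Lifr, and SMA+Pifithrin-α against SMA to 0.22 for Ret and 0.043 for Cntfr. SMA+SMN-C3 against SMA turned to 0.0025 for Ntrk2, 0.13 for Ntrk3, 0.015 for Ret and 0.12 for Il6st. Without mitochondrial genes Gfra2 turned to -0.064 in SMA against WT and 0.0066 in SMA+MW150 against SMA, and Ret to 0.078 in SMA+Pifithrin-α against SMA. With the mitochondrial share as a term, SMA against WT turned to -0.066 for Ntrk2, -0.095 for Ret, -0.46 for Gfra2, 0.20 for Lifr and -0.42 for Cntfr; SMA+MW150 against SMA to 0.054 for Gfra2 and -0.012 for Lifr; and SMA+Pifithrin-α against SMA to 0.12 for Ngfr, 0.060 for Ntrk2, 0.26 for Ret, -0.057 for Lifr and 0.41 for Cntfr. With gene-by-gene weights, SMA against WT turned to -0.28 for Gfra2, 0.0016 for Lifr and 0.027 for Il6st; SMA+MW150 against SMA to -0.046 for Ret and 0.046 for Gfra2; SMA+Pifithrin-α against SMA to 0.20 for Ret and 0.11 for Cntfr; and SMA+SMN-C3 against SMA to -0.0067 for Cntfr. Without both mitochondria-rich libraries, SMA against WT turned to -0.26 for Gfra2, 0.22 for Lifr and -0.16 for Cntfr, and SMA+Pifithrin-α against SMA to 0.048 for Ngfr, 0.012 for Ntrk3, 0.34 for Ret and 0.40 for Cntfr. Among protein-coding transcripts only, the Ntrk3 kinase share differed by 2.80 points in SMA against WT, -2.70 with MW150 and -1.09 with Pifithrin-α.

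Leaving out 1 library at a time turned the sign of 17 receptor differences. In SMA against WT the ranges were -0.20 to 0.12 for Ntrk3, -0.26 to 0.35 for Gfra2, -0.67 to 0.22 for Lifr and -0.16 to 0.57 for Cntfr. In SMA+MW150 against SMA they were -0.18 to 0.41 for Ngfr, -0.084 to 0.23 for Ntrk3, -0.086 to 0.17 for Ret, -0.13 to 0.20 for Gfra2, -0.27 to 0.40 for Lifr and -0.11 to 0.37 for Cntfr. In SMA+Pifithrin-α against SMA they were -0.83 to 0.048 for Ngfr, -0.57 to 0.012 for Ntrk3, -0.26 to 0.34 for Ret and -0.60 to 0.40 for Cntfr. In SMA+SMN-C3 against SMA they were -0.29 to 0.017 for Ntrk3, -0.072 to 0.60 for Lifr and -0.15 to 0.34 for Cntfr. The Ntrk2 kinase share kept its direction in all 4 comparisons (-15.6 to -10.9 points for SMA against WT), while that of Ntrk3 ranged from -6.35 to 0.64 points in SMA against WT.

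The labels do not say that a replicate number marks a shared litter or day. Over 30 same-numbered pairs the correlation of deviations from group means ran from -0.34 to 0.29, with 4 over 0.1, and 10 correlated best with their own number. All 3 pairs were over 0.1 between WT and SMA+SMN-C3, and in no other pair of groups. Of these, WT 2 and SMA+SMN-C3 2 did not correlate best with their own number. WT 1 and SMA+SMN-C3 1 also had the highest mitochondrial share of their groups, at 21.9% and 11.3%, and its part was not tested. With the replicate block 0 receptors were called in each comparison. In SMA+SMN-C3 against WT the block left Igf1r at -0.91 (SE 0.44, unadjusted p = 0.056, adjusted p = 0.72 by limma), and 3 genes in all were called, as without it.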

Other observations

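Several pathway genes, chosen after their values were seen, had unadjusted p-values under 0.05 without passing the correction. Groups did not overlap for 18.3% of all genes in SMA against WT. Against SMA the shares were 10.9% with MW150, 15.3% with Pifithrin-α and 20.7% with SMN-C3. Lif, the ligand of the LIF receptor, was nearly absent from WT, with 0.0071, 0.0233 and 0 TPM, against 5.37, 2.60 and 1.13 TPM for the SMA libraries, a difference of 1.86 (SE 0.45, adjusted p = 0.12 by limma). In SMA+SMN-C3 it was at 0.364, 0.0054 and 0.211 TPM, below all SMA libraries (difference -1.63, SE 0.45, adjusted p = 0.25 by limma). It was at 2.87, 1.49 and 0.467 TPM in SMA+MW150 and at 1.30, 1.94 and 0.236 TPM in SMA+Pifithrin-α, and both groups overlapped SMA (differences -0.60 and -0.85, SE 0.45). Fos, an immediate early gene, stood at 8.11, 12.7 and 27.7 TPM for WT and 49.8, 37.3 and 40.3 TPM for SMA (difference 1.50, SE 0.36, adjusted p = 0.11 by limma). In SMA+SMN-C3 it was at 26.1, 13.5 and 18.0 TPM, again below all SMA libraries (difference -1.14, SE 0.36, adjusted p = 0.36 by limma). SMA+Pifithrin-α, at 21.3, 27.1 and 26.6 TPM, also lay below all SMA libraries (difference -0.74, SE 0.36, adjusted p = 0.46 by limma), while SMA+MW150, at 44.4, 42.5 and 33.0 TPM, overlapped them. Etv5, an ETS family transcription factor, was at 1.29, 4.95 and 8.07 TPM in WT, 11.9, 14.6 and 11.6 TPM in SMA and 5.88, 3.50 and 4.88 TPM in SMA+SMN-C3. Its differences were 1.45 (SE 0.44) in SMA against WT and -1.27 (SE 0.44) in SMA+SMN-C3 against SMA. SMA+MW150, at 11.1, 8.90 and 10.4 TPM, and SMA+Pifithrin-α, at 8.35, 8.49 and 3.39 TPM, lay below all SMA libraries too (differences -0.30 and -0.90, SE 0.44, adjusted p = 1 and 0.46 by limma). Microglia markers summed to 71.0 to 100.02 TPM in WT, 191 to 224 TPM in SMA, 137 to 195 TPM in SMA+MW150, 82.6 to 145 TPM in SMA+Pifithrin-α and 99.3 to 132 TPM in SMA+SMN-C3, and their part in these values was not tested.

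Gfra1, the GDNF co-receptor, was more abundant than Gfra2 in all 15 libraries. It was at 56.1, 81.6 and 97.4 TPM in WT, 130, 110 and 105 TPM in SMA and 79.8, 58.2 and 79.8 TPM in SMA+SMN-C3. The difference between SMA+SMN-C3 and SMA was -0.66 (SE 0.30, adjusted p = 0.57 by limma), and the groups did not overlap. In this comparison 20.7% of all genes and 1 of the 16 tested further receptors did not overlap. The Gfra1 values of SMA and WT did not overlap either, with SMA above WT, a pattern found for 14.5% of all genes. The naming rule does not select Gfra1, and its values were known when it was picked. Gfra1 was at 129, 116 and 97.4 TPM in SMA+MW150 and 118, 101 and 52.5 TPM in SMA+Pifithrin-α, and both overlapped SMA.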
